A study of Homo sapiens with 36 samples.

Results

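C3 and SERPINA1 are a pair of genes for liver acute-phase proteins, and in a Jurkat T-cell experiment they were almost silent with a control guide and detected when RELA was activated. They are 2 of the 74628 genes in the count table, found by matching Ensembl identifiers to gene symbols (ENSG00000125730 and ENSG00000197249). They were picked because of their levels in the 2 guide arms, so the difference between the guides is described here and not tested, and only the course over days and the relation to RELA are tested.

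C3 is the central protein of the complement cascade, where its cleavage tags surfaces and releases a fragment that attracts and activates leukocytes. SERPINA1 encodes alpha-1-antitrypsin, a serine protease inhibitor that protects tissue from neutrophil elastase. Hepatocytes secrete both in large amounts, more so during inflammation, when cytokines act through NF-kB, STAT3 and C/EBP factors, and some leukocytes and epithelia make smaller amounts. RELA encodes p65, the NF-kB subunit with a transactivation domain, and its dimers are held in the cytoplasm by inhibitors such as NFKBIA.

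The cells were Jurkat, a human T-lymphocyte leukaemia line, in a stable derivative whose genotype is given as dCas9-VP64 with mCherry. dCas9-VP64 is a nuclease-dead Cas9 fused to a transcriptional activator, and a guide RNA brings it to a promoter (CRISPR activation). All groups carried this activator and a pXPR-based lentiviral guide vector, went through puromycin selection for 3 days, and differed in the guide, sgRELA or the non-targeting sgControl. Cells were harvested 5, 6 or 7 days after transduction, with 3 transductions per guide and day and 2 RamDA-seq libraries, each from 100 pg of total RNA, per RNA sample. The 6 groups were therefore sgControl and sgRELA on each of the 3 days, with 18 RNA samples and 36 libraries. The labels describe 1 guide against RELA, so effects of that guide and of RELA itself cannot be told apart, nor can day and handling batch. Whether the stable line is 1 clone is not given in the sources used here.

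Libraries held between 7586205 and 16124473 counts (median 12052035), and sums of both libraries held 18769530 to 29503934. Levels are given as CPM, counts relative to library size scaled by TMM factors of 0.971 to 1.08, with the libraries of an RNA sample added. The cells carried T-cell transcripts throughout, with the 12 listed T-cell markers summing to 3203 to 4119 CPM with sgControl and 3376 to 4287 CPM with sgRELA. RELA itself, the targeted gene (chr11:65653596-65663094, minus strand, GRCh38), checked the labels. In sgControl replicates 1, 2 and 3 its level was 31.2, 39.3 and 29.4 CPM on day 5, 30.9, 20.2 and 20.7 CPM on day 6, and 26.5, 25.3 and 22.4 CPM on day 7. In sgRELA it was 318.5, 263.1 and 299.7 CPM on day 5, 223.2, 186.7 and 193.6 CPM on day 6, and 125.8, 135.9 and 119.8 CPM on day 7. Every sgRELA sample was above every sgControl sample, and the 3 days of sgRELA did not overlap one another. The ratio of sgRELA to sgControl was 8.87 on day 5, 8.50 on day 6 and 5.15 on day 7.

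C3 lies on chromosome 19 (chr19:6677704-6730562, minus strand, GENCODE v29 on GRCh38). With sgControl its level was 0.351, 0 and 0 CPM in replicates 1, 2 and 3 on day 5, 0.785, 0 and 0.0887 CPM on day 6, and 0.0414, 0 and 0 CPM on day 7. With sgRELA it was 7.78, 11.2 and 15.1 CPM on day 5, 10.7, 16.8 and 20.5 CPM on day 6, and 14.7, 10.8 and 5.66 CPM on day 7. The lowest sgRELA sample, replicate 3 of day 7, was above the highest sgControl sample, replicate 1 of day 6, so the guides did not overlap on any day. As a background with the same contrast, 0.138% of 27553 tested genes were called between the guides on day 5, 0.214% on day 6 and 0.0907% on day 7, at an adjusted p under 0.05 in edgeR's quasi-likelihood test. That contrast chose C3, so nothing is read from these shares.

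In counts, C3 had 2696 with sgRELA and 27 with sgControl over all samples. All 18 sgRELA libraries held C3 counts, between 55 and 278 each, against 6 of the 18 sgControl libraries. Of the 27 control counts, 25 came from samples numbered replicate 1, and 5 of the 9 control RNA samples had none. The ratio of summed, scaled counts was 97.9 on day 5 (95% exact interval 49.5 to 227.4, counting error only), 57.1 on day 6 (36.0 to 96.8) and 765.6 on day 7 (137.0 to 30280.0). The wide day 7 interval rests on a single control count. Over all days the ratio was 94.9 (65.1 to 144.2). This size depends on the replicates: it was 908.5 without replicate 1 of both guides, 62.8 without replicate 2 and 64.5 without replicate 3. Values of 2 counts were more frequent in the table than values of 1 (73368 against 48693), and 64.9% of values from 1 to 10 were even, so a count may not be an independent fragment and the intervals may be too narrow.

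SERPINA1 lies on chromosome 14 (chr14:94376747-94390693, minus strand, GENCODE v29 on GRCh38). With sgControl it had no count on days 5 and 7, where 3 counts over the group would be 0.0442 and 0.0412 CPM, and on day 6 it was at 0, 0.447 and 0.621 CPM in replicates 1, 2 and 3. With sgRELA it was at 2.27, 0.640 and 1.75 CPM on day 5, 2.98, 3.76 and 2.20 CPM on day 6, and 0.867, 1.99 and 1.01 CPM on day 7. The guides did not overlap within a day, but across days the lowest sgRELA sample (replicate 2 of day 5) was barely above the highest sgControl sample (replicate 3 of day 6). That contrast chose SERPINA1 too, so nothing is read from the separation.

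SERPINA1 counts were few and uneven between libraries. There were 412 with sgRELA, in 16 of 18 libraries with 0 to 46 each, and 24 with sgControl, in 2 of 18 libraries. On day 6 of sgControl the 2 libraries of replicate 2 held 0 and 10 counts, and those of replicate 3 held 14 and 0. On day 7 of sgRELA the same split appeared, with 22 and 0 counts in replicate 1 and 24 and 0 in replicate 3. An RNA sample could thus be positive in 1 library and empty in the other, at a starting amount of 100 pg. The ratio of sgRELA to sgControl was 8.22 on day 6 (5.36 to 13.1), the only day with control counts. Set against an assumed floor of 3 counts over the group, SERPINA1 would be 35.3-fold higher on day 5 and 31.2-fold higher on day 7. With libraries this uneven, 0 counts do not bound the control level at that floor, so these 2 values are not lower limits. Over all days the ratio was 16.3 (10.8 to 25.8). It was 10.7 without replicate 1 of both guides and 27.5 without replicate 3.

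**Figure D1:**
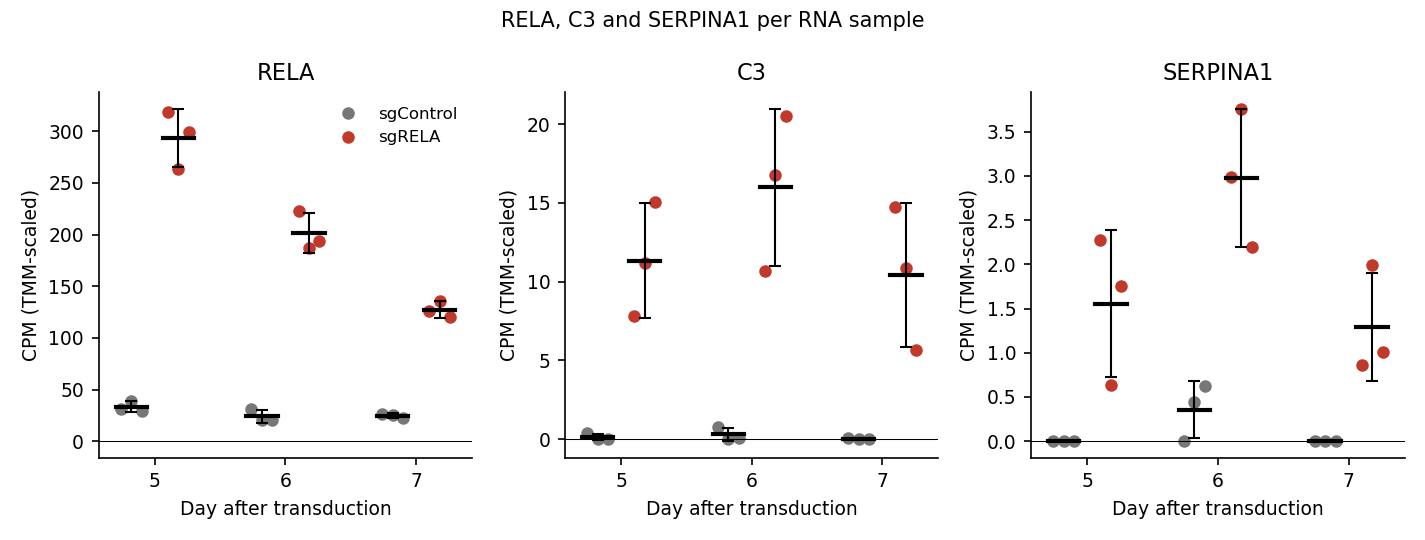
Levels of RELA, C3 and SERPINA1 (y axes, TMM-scaled CPM) by day after transduction (x axes) for sgControl (grey) and sgRELA (red). Each point is 1 RNA sample with its 2 libraries added, horizontal bars are means and vertical bars SD (n = 3). RELA steps down from day 5 to day 7 in sgRELA, whereas the days of C3 overlap, and the mean of SERPINA1 is highest on day 6.

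**Figure D2:**
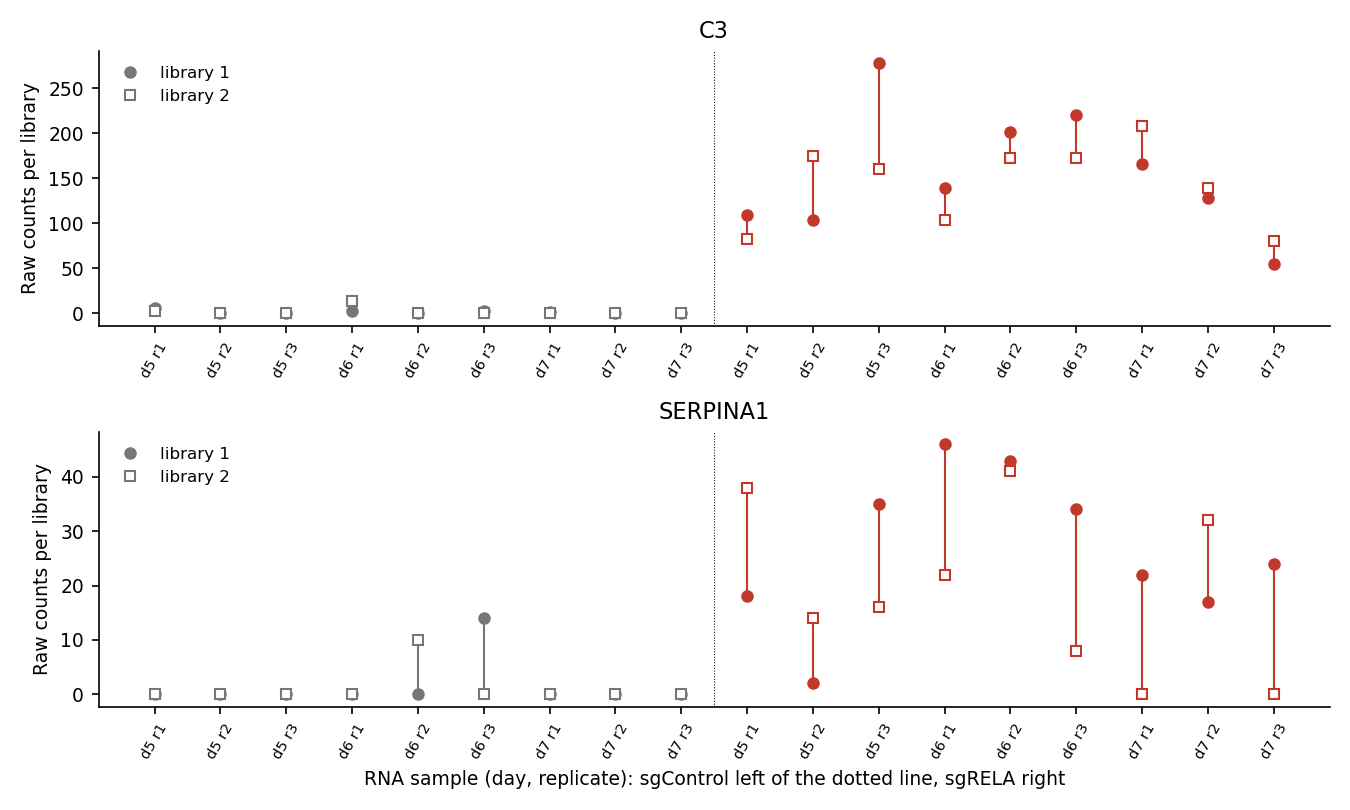
Raw counts of C3 (top) and SERPINA1 (bottom) in each of the 36 libraries (y axes), by RNA sample (x axis, d for day and r for replicate), with a line joining the 2 libraries of one RNA sample. C3 is present in every sgRELA library, from 55 to 278 counts, while 2 sgRELA libraries and 16 sgControl libraries hold no SERPINA1 count.

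By level, the groups of C3 ordered as sgControl day 7 (0.0138 ± 0.0239 CPM, SD, n = 3), sgControl day 5 (0.117 ± 0.203), sgControl day 6 (0.291 ± 0.430), sgRELA day 7 (10.4 ± 4.55), sgRELA day 5 (11.3 ± 3.64) and sgRELA day 6 (15.99 ± 4.99). Neighbours in that order overlapped, except at the step from sgControl to sgRELA. For SERPINA1, sgControl days 5 and 7 were at 0, followed by sgControl day 6 (0.356 ± 0.320 CPM), sgRELA day 7 (1.29 ± 0.612), sgRELA day 5 (1.55 ± 0.833) and sgRELA day 6 (2.98 ± 0.782). The 3 day 6 samples of sgRELA were all above the 3 day 7 samples (lowest 2.20 against highest 1.99 CPM), but overlapped those of day 5. How many of all genes separate in this way was not counted. The day 7 against day 6 difference of SERPINA1 was not called (edgeR adjusted p = 0.416), beside 12.2% of all genes. Per kilobase of the longest GENCODE v29 transcript, the mean level over the 9 sgRELA samples was 2.39 ± 0.880 CPM per kb for C3, 0.549 ± 0.289 for SERPINA1 and 65.1 ± 23.4 for RELA. Both genes were thus far less abundant than RELA on that scale. In bulk RNA, few cells with high levels and many cells with low levels cannot be told apart.

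Whether the guide difference itself varied with the day could not be read for these genes, because the control side was at 0 counts for SERPINA1 on days 5 and 7 and at 1 count for C3 on day 7. Over all genes, edgeR's interaction test of guide and day called 1 of 27553 (0.00363%).

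Within sgRELA, RELA fell from each day to the next, and no difference between days was called for either acute-phase gene. Between days 5 and 6, 6.91% of all genes were called, between days 5 and 7 12.4%, and between days 6 and 7 12.2%. RELA fell by 0.55 ± 0.13 on the log2 scale (SE) from day 5 to day 6 (edgeR adjusted p = 0.00569). Over the whole span to day 7 it decreased by 1.21 ± 0.13 (edgeR adjusted p = 6.43e-08). C3 differed by 0.49 ± 0.50 log2 units on day 6 against day 5 (95% interval -0.52 to 1.51, edgeR adjusted p = 0.689). On day 7 against day 5 it differed by -0.12 ± 0.50 (-1.14 to 0.90, edgeR adjusted p = 0.931), and on day 7 against day 6 by -0.62 ± 0.50 (-1.64 to 0.40, edgeR adjusted p = 0.546). For day 7 against day 5 the interval runs from 0.454 to 1.86-fold, and whether C3 and RELA differed in their course was not tested. SERPINA1 differed by 0.94 ± 0.78 on day 6 against day 5 (-0.67 to 2.54, edgeR adjusted p = 0.605). Its difference was -0.27 ± 0.78 on day 7 against day 5 (-1.88 to 1.34, edgeR adjusted p = 0.894) and -1.21 ± 0.79 on day 7 against day 6 (-2.83 to 0.41, edgeR adjusted p = 0.416). The SERPINA1 intervals each include the change of RELA between the same days. The sign of the day 7 against day 5 difference rested on single replicates: for C3 it was 0.43 without replicate 3, and for SERPINA1 it was 0.34 without replicate 1.

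RELA level and the level of each gene were then compared across the 9 sgRELA samples, on log2(CPM + 0.5). RELA and C3 had a Pearson r of 0.116 (exact permutation test over all 362880 pairings, two-sided, p = 0.764, adjusted over 3 relations 0.764) and a Spearman rho of 0.0667 (exact permutation p = 0.880, adjusted 0.880). Without the 2 samples farthest from the median RELA level, r was -0.0297. RELA and SERPINA1 had r = 0.234 (exact permutation p = 0.532, adjusted 0.764) and rho = 0.217 (exact permutation p = 0.581, adjusted 0.880), with r = 0.0087 without those 2 samples. C3 and SERPINA1 had r = 0.289 with each other (exact permutation p = 0.450, adjusted 0.764) and rho = 0.117 (exact permutation p = 0.776, adjusted 0.880), and r was 0.013 without the 2 samples farthest in C3. None of the 3 relations was called. RELA levels fell into separate ranges by day, so RELA and day cannot be told apart over these samples, and a single day holds only 3. After the day means were subtracted, r was -0.22 for RELA with C3, 0.655 for RELA with SERPINA1 and -0.152 for C3 with SERPINA1. Single samples went both ways. The highest SERPINA1 sample, replicate 2 of day 6, had 186.7 CPM of RELA, and the highest RELA sample, replicate 1 of day 5, had the second lowest C3 level of sgRELA. That RELA sample had 2.27 CPM of SERPINA1, above the sgRELA median of 1.99. The lowest RELA sample, replicate 3 of day 7 (119.8 CPM), also had the lowest C3 level of sgRELA (5.66 CPM).

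**Figure D3:**
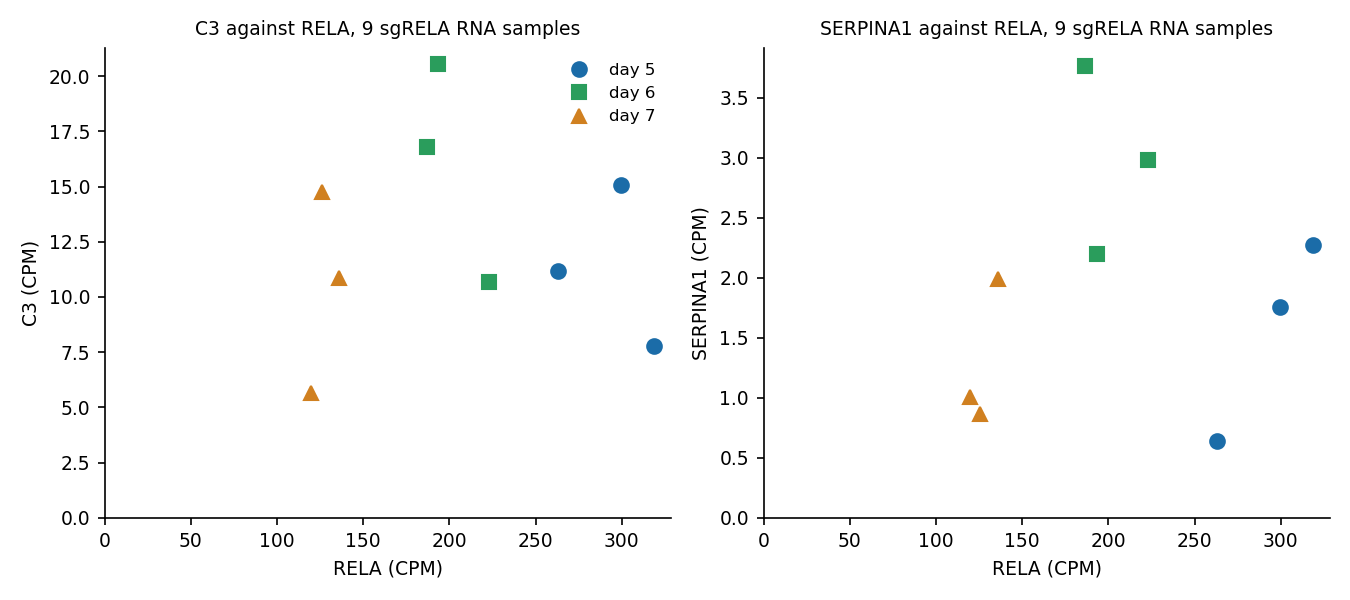
C3 (left) and SERPINA1 (right) level (y axes, CPM) against RELA level (x axes, CPM) in the 9 sgRELA RNA samples, with days marked by colour and shape. The samples of a day form a vertical band along the RELA axis (119.8 to 135.9 CPM on day 7, 186.7 to 223.2 on day 6 and 263.1 to 318.5 on day 5) and both genes spread widely within each band.

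Genes with the most similar pattern over all 18 samples were named by Pearson correlation on the same log2 scale, as a description, since the 2 guide arms set such values. Of 27552 genes, SHOX2 (0.981), RNPEP (0.965), CD79A (0.956), RELA (0.948) and LONRF1 (0.942) were most like C3. SHOX2 had a mean of 0.372 CPM with sgControl and 12.5 CPM with sgRELA, close to the levels of C3. EPHX1 (0.914), RNPEP (0.895), ENSG00000286909 (0.889), SESN3 (0.886) and NFKBIA (0.877) were most like SERPINA1. C3 ranked 6 in likeness to SERPINA1 and SERPINA1 ranked 11 in likeness to C3, with a correlation of 0.869. Within the 9 sgRELA samples alone, RELA ranked 11071 of 27547 in likeness to C3 and 9096 in likeness to SERPINA1. There SRP72P2 (0.948), AATK (0.932), ARMC2-AS1 (0.931), RPL27P5 (0.925) and MED20 (0.921) led for C3. For SERPINA1, C8orf58 (0.977), ENSG00000291266 (0.953), CCDC113 (0.95), PPP1R3B-DT (0.949) and ARHGEF40 (0.947) led. No gene stood on both the 18-sample and the 9-sample lists.

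Few genes of any kind were called between the guides across days, 0.363% of 28888, so a count of 0 in a short list says little about that list. Of the 33 further acute-phase proteins listed, 15 were expressed enough to be tested across days, and 0 were called higher or lower with sgRELA, where that share of all genes would also give less than 1. At an unadjusted p under 0.05 edgeR gave 0 and DESeq2 1, and DESeq2 also called 0. Their median log2 fold change was 0.25, with 11 of 15 above 0, beside -0.002 for all tested genes. The list was not divided into proteins that rise and proteins that fall in an acute-phase response. The 3 most abundant were ITIH4 (15.2 ± 6.90 CPM with sgControl and 12.96 ± 3.94 with sgRELA, SD, n = 9), C5, the complement protein cleaved after C3 (6.65 ± 2.41 and 7.95 ± 2.98), and C9, a pore-forming complement protein (6.15 ± 3.43 and 6.10 ± 3.13). The other 18 were too low to test. Among them, named after their values were seen, the serum amyloid genes SAA1 and SAA2 had 3 and 2 counts over all sgControl libraries and 1 and 0 over all sgRELA libraries. CRP, the C-reactive protein, had 6 and 0 counts, SERPINA3 0 and 2, and LCN2, an iron-scavenging protein, 7 and 11. The genes of the transport proteins TTR and RBP4, of SAA4, of APCS and of the fibrinogen chain FGA were at 0 in every library.

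Of 41 other complement genes, 25 were tested and, beside 0.363% of all genes, 0 were called by edgeR or DESeq2 (3 at an unadjusted p under 0.05 in each). The median of their log2 fold changes was 0.07, and 19 of 25 lay above 0. Both figures include C2, C4A, C4B, C5, C9 and CFB, which were also counted in the acute-phase list. The most abundant were the membrane regulators CD46 (126.5 ± 13.5 CPM with sgControl, 125.2 ± 15.4 with sgRELA) and CD59 (108.1 ± 16.1 and 123.1 ± 15.5) and the integrin chain ITGB2 (108.2 ± 13.4 and 113.6 ± 12.3). CFB, the factor that binds C3b in the alternative pathway convertase, had a log2 fold change of 0.06 ± 0.32 (edgeR adjusted p = 0.993). The receptor C3AR1, which binds the small fragment of C3, had 0.979 ± 0.919 CPM with sgControl and 1.83 ± 1.13 with sgRELA (log2 fold change 0.94 ± 0.30, edgeR adjusted p = 0.350). ITGAM, a chain of the receptor for degraded C3b, had 0.432 ± 0.359 and 1.11 ± 0.798 CPM (1.36 ± 0.41, edgeR adjusted p = 0.289). The last 3 genes were named after their values were seen.

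Of 30 other serpins and protease targets of alpha-1-antitrypsin, 14 were tested and, beside the same 0.363%, 0 were called by edgeR (2 at an unadjusted p under 0.05), with a median log2 fold change of -0.06. DESeq2 called 1, the SERPINA1 neighbour SERPINA10. SERPINB8, SERPINH1 (a collagen chaperone) and SERPINE2 were the most abundant, with 57.5 ± 17.9, 38.6 ± 33.8 and 25.4 ± 6.80 CPM with sgControl and 56.9 ± 12.8, 35.1 ± 32.0 and 23.9 ± 10.5 CPM with sgRELA. ELANE, the gene of neutrophil elastase, was at 0 in every library.

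Among 34 regulators of the acute phase, 28 were tested and 1 was called higher, RELB, an NF-kB subunit of the non-canonical pathway. RELB was at 0.745 to 1.97 CPM with sgControl and 2.56 to 8.64 CPM with sgRELA, with a log2 fold change of 2.12 ± 0.22 (edgeR adjusted p = 7.48e-06). It was called on each of the 3 days and under all 11 alternatives. Its share of 1 in 28 stands beside the 0.242% of all genes called higher. NFKB1, the gene of the p50 partner of p65, had a log2 fold change of 0.35 ± 0.08 and missed the threshold (edgeR adjusted p = 0.0506). It was called with DESeq2, without the filter, with a replicate block and with 18 sums and a day term. STAT3 (203.7 ± 17.6 and 222.1 ± 23.1 CPM, edgeR adjusted p = 0.417) and CEBPB (3.14 ± 1.86 and 2.61 ± 1.41 CPM, edgeR adjusted p = 0.947), factors of the cytokine response of the liver, were not called between the guides. IL6, the cytokine that drives hepatic acute-phase synthesis, had 2 counts in all sgControl and 11 in all sgRELA libraries. These last 4 genes were named after their values were seen.

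**Figure D4:**
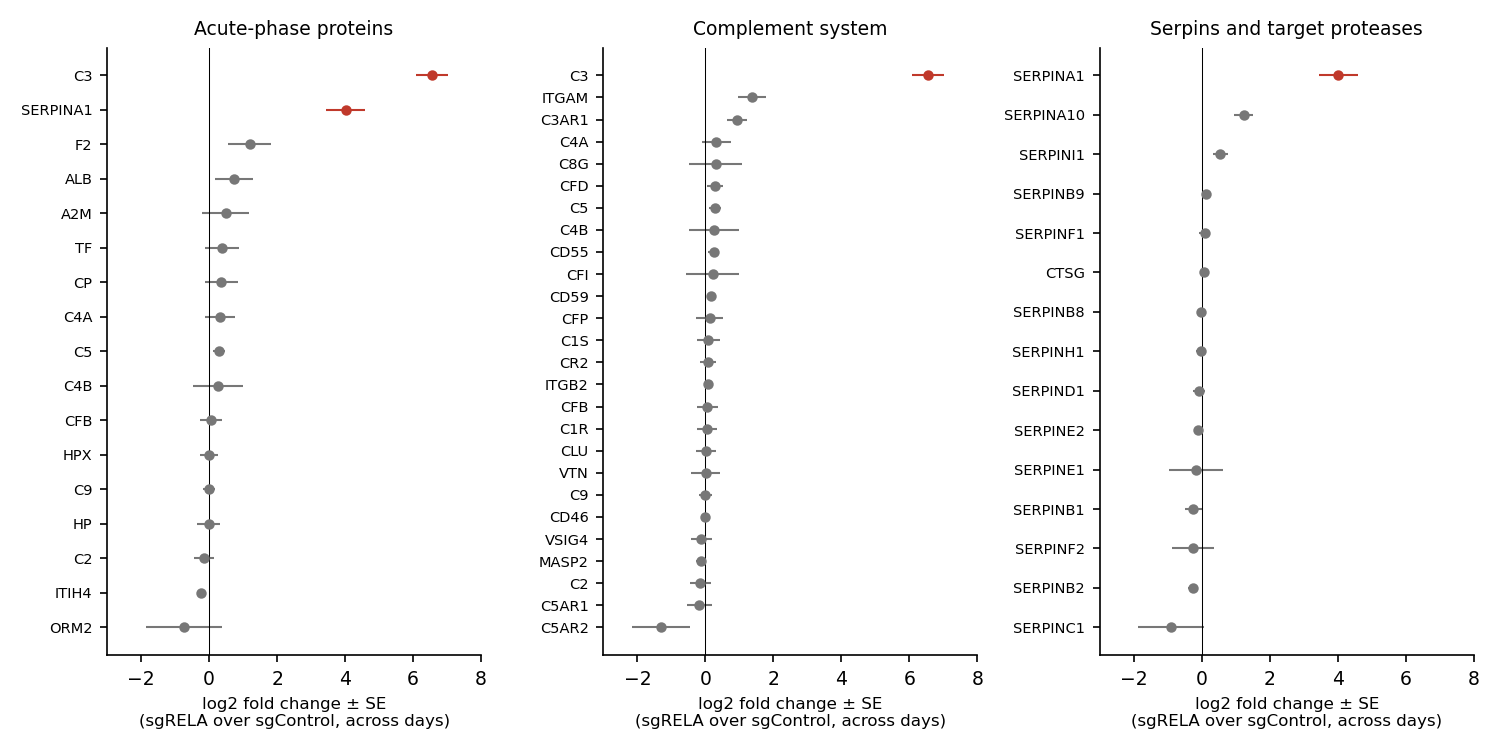
Fitted log2 fold change of sgRELA over sgControl across days (x axes, bars are SE) for each tested gene (y axes) of 3 lists, with C3 and SERPINA1 in red and the other genes in grey. C3 and SERPINA1 were picked on this contrast, their size depends on the few control counts, and of the grey genes 0 were called.

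Over the days of sgRELA, listed genes changed in both directions. The days of sgControl were not compared with one another. The interaction test of guide and day called 1 of 27553 genes. Day changes here and below are therefore not read as particular to sgRELA. From day 5 to day 7, 2 of 14 tested acute-phase genes were called lower, ITIH4 (log2 fold change -0.68 ± 0.21, edgeR adjusted p = 0.0321) and HPX, the haem-binding hemopexin (-1.66 ± 0.48, edgeR adjusted p = 0.0198), and 0 higher. Of 29 tested regulators 5 were called lower, CEBPB, LIFR, NR3C1, REL and STAT3, and 0 higher. CEBPB fell by 1.88 ± 0.51 on the log2 scale (edgeR adjusted p = 0.0117). These calls were sensitive to the samples: ITIH4 was lost without any 1 replicate, HPX and LIFR without replicate 2 or 3, CEBPB without replicate 1 or 3, STAT3 without replicate 2 or 3 and NR3C1 without replicate 3, while REL was kept without each. In the other lists, 5 of 12 T-cell markers (CD3D, CD3G, LCK, TRAC and ZAP70), the serpin SERPINB8 and the C3 neighbour TUBB4A were called higher over the same days, and SERPINE2, SERPINH1 and CTSG, a neutrophil protease, lower. The complement regulators CD46 and CD55, the SERPINA1 neighbour PPP4R4 and the myeloid marker CD68 were also called lower, and the myeloid marker S100A9 higher. In the complement list on day 7 against day 6, C9 was called higher and VSIG4 lower (VSIG4 -2.84 ± 0.66, edgeR adjusted p = 0.00305). VSIG4 had been called higher on day 6 against day 5 (2.77 ± 0.66, edgeR adjusted p = 0.00698). In these 2 comparisons 12.2% and 6.91% of all genes were called in either direction. The shares of all genes called on day 7 against day 5 were 6.06% lower and 6.35% higher.

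Markers of cell types that make these proteins were looked at in the same samples. The 12 hepatocyte markers summed to 4.41 to 8.97 CPM with sgControl and 3.02 to 9.96 CPM with sgRELA, 0 of 5 tested were called by edgeR or DESeq2 (0 at an unadjusted p under 0.05), and TTR was at 0. The 8 epithelial markers summed to 0.514 to 2.704 and 0.941 to 3.92 CPM, 0 of 4 tested were called by either (0 at an unadjusted p under 0.05), and EPCAM was at 0. The 12 myeloid markers summed to 20.5 to 41.2 and 22.0 to 43.4 CPM, most of it CD68 (29.2 ± 7.53 and 29.9 ± 8.41), and 0 of 6 tested were called by edgeR (2 at an unadjusted p under 0.05), but 1, S100A9, by DESeq2. Their median log2 fold change was 0.67, with 6 of 6 above 0. The calprotectin genes S100A9 and S100A8, myeloid markers named after their values were seen, had 3 and 0 counts with sgControl and 85 and 23 with sgRELA (S100A9 edgeR adjusted p = 0.0795).

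In sgRELA, S100A9 was at 0 in all 3 samples of day 5, at 0 to 0.448 CPM on day 6 and at 0.528 to 1.182 CPM on day 7. The difference between days 7 and 5 was called (edgeR adjusted p = 0.028), and since day 5 was at 0 its fitted size is not given. The call was lost without any 1 replicate, and whether the course of S100A9 differed from that of C3 or SERPINA1 was not tested. CD68, which made up most of the myeloid sum, went the other way. With sgRELA it was called lower on day 7 against day 5 and on day 7 against day 6. Of 8 B-cell markers 4 were tested and 1 was called higher (0.242% of all genes were), CD79A, a chain of the B-cell receptor complex, at 19.9 ± 3.24 CPM with sgControl and 56.1 ± 4.21 CPM with sgRELA (log2 fold change 1.50 ± 0.08, edgeR adjusted p = 3.88e-11). It carried most of the summed B-cell markers, which lay at 24.2 to 36.8 CPM with sgControl and at 60.2 to 76.4 CPM with sgRELA. Among the tested markers, BLK and CD79B had 1818 and 42 counts with sgControl and 2162 and 44 with sgRELA. The untested IGHM, PAX5, MS4A1 and CD22 had 27, 40, 6 and 5 counts with sgControl and 1, 14, 3 and 0 with sgRELA. Of 12 T-cell markers 1 was called higher, beside the same 0.242%, the costimulatory receptor CD28 (log2 fold change 0.31 ± 0.06, edgeR adjusted p = 0.0177). That call was lost without any 1 replicate and with library 1 or library 2 alone, and a replicate block also called PTPRC. The part of these markers in the levels of C3 and SERPINA1 was not tested.

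The SERPINA1 neighbourhood held further differences. Its 8 nearest protein-coding genes on each side were taken from RefSeq, of which 9 were tested and 2 were called higher, PPP4R4 and GSC, and 0 lower (0.242% of all genes were called higher). PPP4R4, a regulatory subunit of protein phosphatase 4, lies 97.0 kb from SERPINA1. It was at 10.0 to 13.8 CPM in sgControl and 22.8 to 26.9 CPM in sgRELA on day 5, at 9.04 to 11.5 and 15.4 to 20.1 CPM on day 6, and at 9.40 to 12.4 and 13.3 to 16.9 CPM on day 7. Between the guides on single days, PPP4R4 was called on day 5 and not on day 6 or day 7. Its log2 fold change was 0.83 ± 0.12 across days (edgeR adjusted p = 0.000824). Within sgRELA it fell by 0.67 ± 0.20 on the log2 scale from day 5 to day 7 (edgeR adjusted p = 0.0198), a call that was lost without any 1 replicate.

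GSC, a homeobox gene 377.6 kb away, had 4.71 ± 1.46 CPM with sgControl and 8.45 ± 2.63 CPM with sgRELA (log2 fold change 0.87 ± 0.19, edgeR adjusted p = 0.0487). On no single day was GSC called between the guides. Across days, PPP4R4 was called in 7 of 11 alternatives and GSC in 5. Neither was called with library 1 or library 2 alone, without replicate 1 or without replicate 3, and GSC was also not called without replicate 2 or without the 2 sgControl libraries with few detected genes. The serpin SERPINA10, 83.5 kb from SERPINA1, had 2.01 ± 1.40 and 4.60 ± 1.64 CPM (1.23 ± 0.28, edgeR adjusted p = 0.0723). It missed the threshold here and was called in 4 of 11 alternatives. Among serpins of the cluster too low to test, SERPINA4 had 0 and 20 counts and SERPINA6 3 and 22, whereas SERPINA11, SERPINA9, SERPINA12, SERPINA5 and SERPINA3 had 0 with sgControl and 0 to 3 with sgRELA. These serpins were named after their values were seen. DDX24, an RNA helicase gene 295.5 kb away (211.8 ± 23.7 and 213.3 ± 23.6 CPM), and DICER1, the microRNA-processing nuclease gene 695.6 kb away (250.6 ± 35.1 and 290.9 ± 36.7 CPM), were not called. DICER1 was called in 3 of 11 alternatives, with DESeq2, without the filter and with a replicate block.

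Around C3, 13 of 16 neighbours were tested and 0 were called by edgeR or DESeq2 (2 at an unadjusted p under 0.05 in each), with a median log2 fold change of 0.08. VAV1, the guanine exchange factor of antigen receptors, was the most abundant, at 106.4 ± 11.1 and 111.5 ± 10.3 CPM. GPR108 overlaps 649 bases of C3 in GENCODE v29 on the same strand. The 2 annotations differ here: in RefSeq, C3 reaches only to position 6720650, and GPR108 lies 9.3 kb from it. GPR108 had 6927 counts with sgControl and 7590 with sgRELA (log2 fold change 0.06 ± 0.09, edgeR adjusted p = 0.968). AC008760.2, a sense-intronic transcript of GENCODE v29, overlaps 1357 bases of C3 on that strand and had 12 counts with sgControl and 33 with sgRELA. SERPINA1 overlapped no other gene of GENCODE v29.

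**Figure D5:**
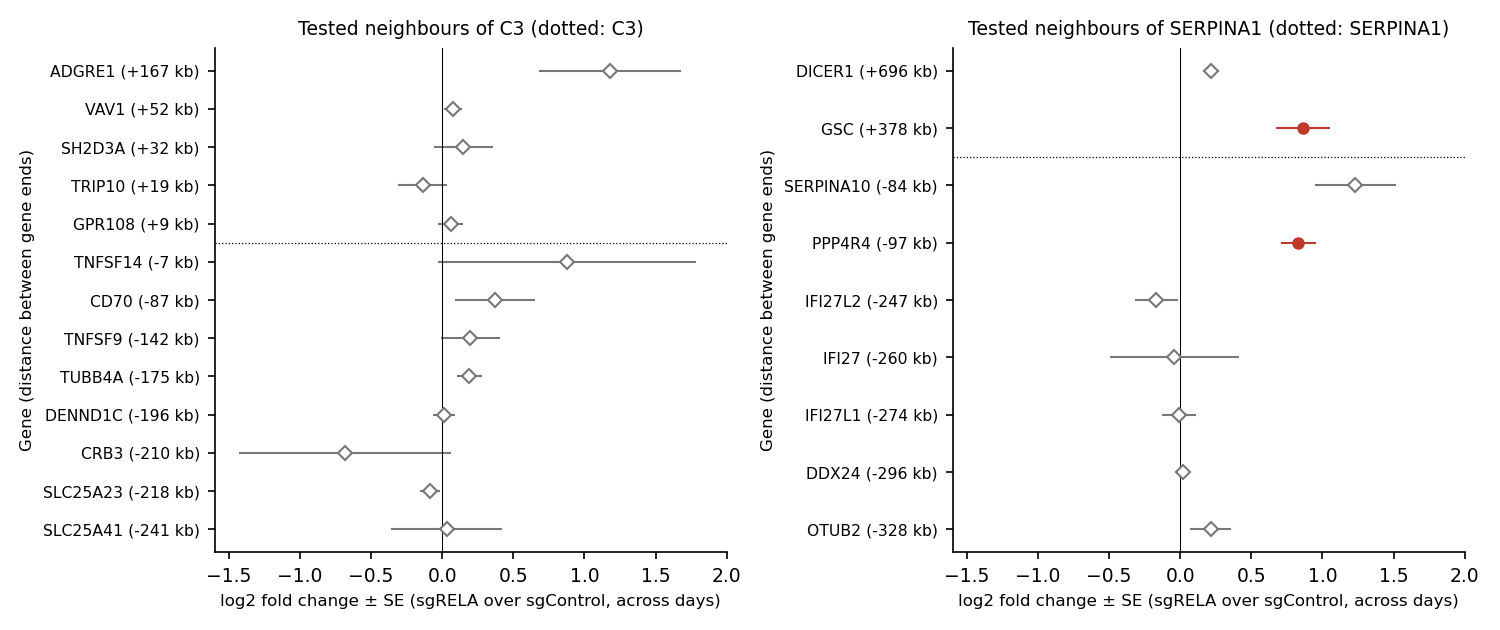
Fitted log2 fold change of sgRELA over sgControl across days (x axes, bars are SE) for the tested protein-coding neighbours of C3 (left) and SERPINA1 (right), ordered by position (y axes, signed distance in kb). Filled red circles are genes called at an adjusted p under 0.05, PPP4R4 and GSC, and open grey diamonds are genes not called.

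SERPINA1 has 2 start sites in RefSeq (GRCh38.p14), of which the downstream one is known as the start used in hepatocytes and the upstream one as used in monocytes. Gene counts do not tell which start was used. The 250 bases before each are shown because both could be read by the factors of the acute phase, 5′ to 3′ on the minus strand, with capitals for matches to a C/EBP motif (TTNNGNAA) or an short HNF1 motif (GTTAAT).
SERPINA1 upstream start, chr14:94390636-94390885: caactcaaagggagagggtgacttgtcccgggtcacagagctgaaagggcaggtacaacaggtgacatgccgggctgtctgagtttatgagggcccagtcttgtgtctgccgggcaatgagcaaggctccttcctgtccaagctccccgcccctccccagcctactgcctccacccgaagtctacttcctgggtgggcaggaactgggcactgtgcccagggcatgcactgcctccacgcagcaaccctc
SERPINA1 downstream start, chr14:94388603-94388852: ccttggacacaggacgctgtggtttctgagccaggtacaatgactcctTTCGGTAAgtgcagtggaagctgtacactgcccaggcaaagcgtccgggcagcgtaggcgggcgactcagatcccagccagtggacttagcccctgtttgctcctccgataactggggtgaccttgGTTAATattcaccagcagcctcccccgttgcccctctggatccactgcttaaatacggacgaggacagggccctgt
Both strands were searched. The downstream window holds 1 C/EBP match, starting 202 bases before the start site, and 1 match to the HNF1 motif, 76 bases before it, and the upstream window holds neither. Over 35116 RefSeq promoters, 33.2% had the C/EBP motif and 6.2% the HNF1 motif. Neither window holds the NF-kB consensus as searched (10.0% of promoters) or the AP-1 motif TGANTCA (6.6%). The letters of that NF-kB consensus are not given here, so its absence cannot be checked against the sequences shown. A match describes letters, and no match says only that these letters are not in these windows.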

How the data were processed

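The deposited table holds raw counts per gene for 36 RamDA-seq libraries, with no normalization by the authors. Reads were handled with cutadapt 1.18 and STAR 2.7.9a on GRCh38, per the submitters' processing notes. Annotation, counter, strand setting and multi-mapping reads are not given in the sources used here, so counts of overlapping genes are uncertain. All columns were assigned to samples through the labels, and symbols came from a gene name table that matched 57693 of 74628 identifiers.

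Counts were added over the library pair of each RNA sample. edgeR 4.0.16 in R 4.3.3 fitted the 18 sums with a mean per guide and day (TMM, filterByExpr with a minimum count of 10, quasi-likelihood F test, Benjamini-Hochberg adjustment over all genes). Across days, sums per guide and replicate number gave 3 against 3. Standard errors come from the F statistic. Ratios have exact 95% intervals, covering counting error only, and a floor of 3 counts. Correlations used exact permutation over all pairings, and scipy 1.17.1 gave the ranks and the ratio intervals. The procedure was tested on simulated data.

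Named were C3, SERPINA1 and RELA, up to 6 called genes of each list or else its 3 most abundant, and the 5 genes most like each by correlation. The genes and lists were chosen with earlier results of these data known. Nothing says beyond triplicate transduction that replicates are independent, so p-values measure the spread between these samples. For the tests across days, they measure the spread between sums over days whose samples share only a guide and a replicate number. Alternatives were DESeq2 1.42.0, its size factors, no filter, either library alone, leaving out replicates or 2 libraries with few detected genes, a replicate block, a day term, and other scales, days or pseudocounts for correlations. The C3 promoter is not analysed here. The result for 1 listed marker is not reported here.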

Additional observations from a re-analysis of the deposited data

Results flagged for a closer look

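The C3 level in 3 sgControl libraries stood apart from the other 5 of its group of 6 libraries by Dixon's criterion (gap to the nearest divided by the range, 95% level). Chance marks about 1 in 20 groups of continuous values, and 10 groups were searched, but this rate does not hold for groups that are mostly at 0, as these are. They were library 1 of replicate 1 on day 5 (0.510 CPM from 6 counts, next highest 0.181 CPM), library 2 of replicate 1 on day 6 (1.15 CPM from 14 counts, next highest 0.245 CPM) and library 1 of replicate 1 on day 7 (0.0826 CPM from 1 count, all others at 0, so that the gap equals the range by construction). All 3 belong to samples numbered replicate 1, which hold 25 of the 27 control counts of C3 and 0 of the 24 control counts of SERPINA1. RELA in sgControl replicates 1, 2 and 3 was at 31.2, 39.3 and 29.4 CPM on day 5, at 30.9, 20.2 and 20.7 CPM on day 6, and at 26.5, 25.3 and 22.4 CPM on day 7, so replicate 1 was the highest on days 6 and 7 and not on day 5. Whether these libraries share material with sgRELA libraries was not tested.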

How the results depend on the processing

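Of 458 values recomputed under alternatives, 346 stayed within the limits for their kind. For tests these were direction and side of the threshold. Counts of called genes had a fold limit, mean levels the SD of the group and guide ratios their exact interval. These limits were wide: 85 genes called between guides on day 6 without a filter, against 59, stayed within them. So did mean SERPINA1 on day 7 of sgRELA, at 0.849 CPM with library 2 alone against 1.29. Between guides, DESeq2 called 73 genes on day 5, 126 on day 6, 54 on day 7 and 235 across days, without a filter 68, 55 and 221 were called on day 5, day 7 and across days, library 1 alone gave 15, 15, 13 and 42, and library 2 alone gave 22 on day 5, 35 on day 6 and 49 across days. Leaving out a replicate gave 21 to 24, 26 to 42, 15 to 20 and 41 to 57. Within sgRELA, day 6 against day 5 gave 2898 genes with DESeq2, 196 with library 1 and 1183 with library 2. Day 7 against day 5 gave 669 and 2222, and day 7 against day 6 gave 961 with library 1. Leaving out a replicate gave 663 to 1467, 1693 to 2484 and 1911 to 2579. For C3, day 7 against day 5 was 0.037 (log2) with library 2, and -0.65 to 0.43 leaving out a replicate. For SERPINA1 it was 0.40 with library 1, and -1.10 to 0.34 leaving out a replicate. No day test of either gene was called in 58 alternatives (lowest adjusted p 0.0841), nor any correlation in 36 (lowest 0.125). For RELA and C3, r was -0.021 without a log, -0.102 with library 2, -0.22 after subtraction of day means and -0.694 without day 7, but 0.506 without day 5. For RELA and SERPINA1 it was -0.154 with library 1 and -0.474 without day 7, but 0.48 with library 2 and 0.85 without day 5, the source of that lowest adjusted p. For C3 and SERPINA1 it was -0.04 with library 2, -0.152 after subtraction of day means and -0.071 without day 6, but 0.507 with library 1 and 0.428 without day 5. Leaving out a replicate gave -0.635 to 0.57 for RELA and C3, -0.094 to 0.751 for RELA and SERPINA1 and 0.024 to 0.628 for C3 and SERPINA1. The guide ratio leaving out a replicate was 62.8 to 908.5 for C3 and 10.7 to 27.5 for SERPINA1. GPR108 was at -0.10 with library 1 and at -0.013 to 0.126 leaving out a replicate. The cause of these changes was not tested. Same-numbered samples of different groups did not deviate together (45 pairs, correlations -0.019 to 0.02). A replicate block gave 33, 57, 21 and 124 calls between guides and 1847, 3357 and 3286 between days. DESeq2 gave no adjusted p for SERPINA1 on days 6 and 7 against day 5. At 100 pg of RNA per library, SERPINA1 was limited by 0 to 46 counts per library.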
